A study of Mus musculus with 12 samples.

Results

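The genes of the mitochondrial respiratory chain were followed in lung tissue of smoke-exposed and control mice. They were taken by name: every gene whose symbol starts with Nduf, Sdh, Uqcr, Cox4, Cox5, Cox6, Cox7, Cox8 or Atp5, together with Cyc1 and Cycs. The rule found 91 genes among 16593 named genes on the array. A probe counted as detected where the deposited detection p was under 0.05 in 3 or more of the 12 arrays. With this filter 85 of the 91 genes had a detected probe, among 10541 genes in all, and the probe with the highest mean stood for its gene. The mice were female C57BL/6N animals kept free of specific pathogens. The 4 groups held 3 arrays each: smoke-exposed mice and control mice at 4 months of age, and smoke-exposed mice and control mice at 6 months of age. Total RNA of the lung was hybridised to Illumina bead arrays, which read the brightness of beads that carry a gene probe. Samples of a group are biological replicates by their titles. The labels give ages but no length of exposure, and what the control mice breathed is not given in the sources used here.

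The respiratory chain lies in the inner mitochondrial membrane. Complexes I and II take electrons from NADH and from succinate, ubiquinone carries them to complex III, and cytochrome c carries them on to complex IV, which reduces oxygen to water. Complexes I, III and IV pump protons, and complex V, the ATP synthase, lets them flow back to make ATP. A few subunits of the chain are encoded in mitochondrial DNA and the others, which are the ones counted here, in the nucleus. Complex IV has subunits that come in a general isoform and an isoform restricted to certain tissues, such as heart and skeletal muscle. The lung has its own such isoform, Cox4i2.

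The name rule took in more than subunits. Of the 85 genes, 38 belonged to complex I (32 subunits, 5 assembly factors and Ndufs5-ps, an annotated pseudogene), 7 to complex II (3 subunits and 4 assembly factors), 7 to complex III, 1 was cytochrome c, 17 belonged to complex IV and 15 to complex V. The other 6 genes had no probe past the detection filter: Ndufs1 (an iron-sulfur subunit of complex I), Uqcrfs1 (the Rieske protein of complex III), Uqcrq, Atp5k, Cox7b2 and Cox8c. For Uqcrfs1 the probe was detected on 1 array and for the others on 0. Sdha (the flavoprotein of complex II), Atp5if1 (the inhibitor of complex V), Ndufa4l2, Ndufa11 and Ndufs5 were not analysed here. The alpha and beta subunits of complex V stand under their older symbols Atp5a1 and Atp5b.

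Median raw intensity was 18 to 28 per array and 55.1 to 57.6% of all probes were detected on each array. All 10 alveolar type 2 cell markers of the lung were detected, with a summed intensity of 98278 to 111417 over the groups. Macrophage markers moved with smoke. At 4 months 9 of 10 detected markers were higher, where 1.65% of all genes passed in either direction, and at 6 months 10 of 10 (5.08%). Their summed intensity was 25038 to 29681 in smoke-exposed lungs and 7261 to 10900 in control lungs at 4 months, and 25328 to 31363 against 8294 to 9510 at 6 months. The 8 endothelial markers tested had a median change of -0.17 at 4 months and -0.35 at 6 months. At 6 months 1 of them was lower (5.08% of all genes passed in either direction). The neutrophil marker sum spread widely within groups, 6078 to 15654 in smoke-exposed and 9473 to 58158 in control lungs at 4 months, and 4592 to 21996 against 9402 to 16342 at 6 months. Whole tissue was measured, so fewer cells of a type and less RNA per cell cannot be told apart, and the part of these shifts in the values below was not tested. Levels below are normalized log2 intensities, and changes are log2 differences, smoke minus control unless stated. A change counted as passing at a limma p below 0.05 after Benjamini-Hochberg adjustment over all probes tested.

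As a group the respiratory chain transcripts lay close to their control level in smoke-exposed lungs at both ages. At 4 months 0 of 85 members passed, against 1.65% of all genes tested (limma, lowest adjusted p of a member 0.0548). At 6 months 0 of 85 passed, against 5.08% of all genes (lowest adjusted p 0.0964). The median change of the members was 0.08 at 4 months, with -0.03 over all genes tested, and 0.02 at 6 months, with -0.02 over all genes. The median at 4 months was 0.03 without control replicate 2 and 0.12 without control replicate 3.

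Most of these changes could be bounded, as differences of normalized log2 intensity. The offset of 16 used in the normalization understates changes of dim probes, so the bounds of dim members may be too narrow for their transcripts. At 4 months the 95% interval of the change lay within 2-fold in either direction for 84 of the 85 members, all but Cox7b, and within 1.5-fold for 68. At 6 months it lay within 2-fold for 84, all but Cox8b, and within 1.5-fold for 79. The median standard error of a change was 0.11. At an unadjusted p below 0.05, 6 members were higher and 4 lower at 4 months, where 7.03% of all genes were higher and 7.75% lower. At 6 months 3 members were higher (9% of all genes) and 2 lower (8.38%). More members had changes above 0 at 4 months, 63 of 85 against 45.4% of all genes, than at 6 months, 48 of 85 against 46.9%. The 3 smoke arrays lay wholly above the 3 control arrays for 10 members at 4 months (9.42% of all genes) and wholly below them for 7 (12%). At 6 months the counts were 6 above (10.7%) and 1 below (11%).

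**Figure D1:**
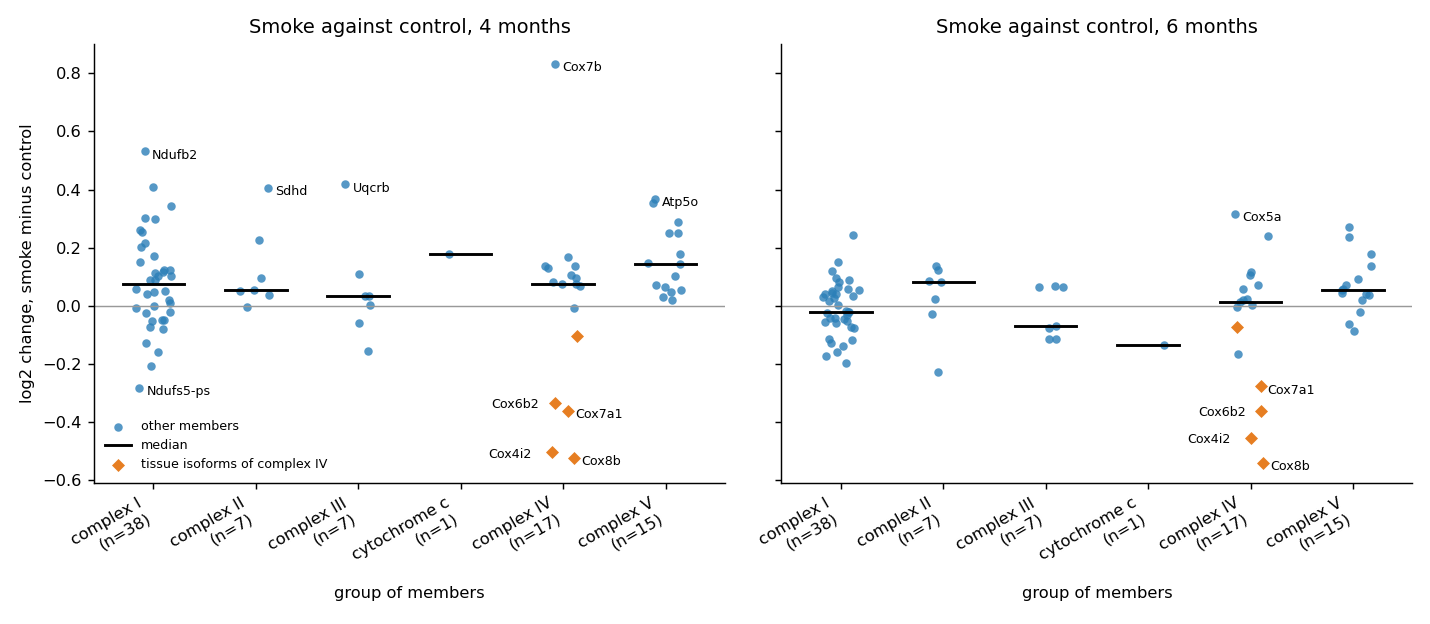
Log2 change of each of the 85 members, smoke minus control, by complex at 4 months (left) and 6 months (right). Each point is a member, black lines are medians, and orange diamonds are the tissue isoforms of complex IV. Most points lie within 0.25 of 0 (65 of 85 at 4 months, 79 at 6 months), Cox7b stands highest at 4 months, and the tissue isoforms other than Cox6a2 stand lowest at both ages.

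Averaged over both ages, 1 member of 85 passed, Cox7b, which was higher, while 6.96% of all genes passed in either direction and 4.3% were higher. At an unadjusted p below 0.05, 6 members were higher (9.9% of all genes) and 4 were lower (11.2%). The lower ones were all tissue isoforms of complex IV. The difference of the smoke effect between the ages passed for 0 members, and for 0% of all genes (limma). At an unadjusted p below 0.05 it was positive for 1 member, Ndufs5-ps (4.43% of all genes), and negative for 3, Ndufb2, Ndufb4 and Cox7b (3.87%). The lowest adjusted p of that difference was 0.578.

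Complex I is the entry point for electrons from NADH. Its 32 subunits had a median change of 0.09 at 4 months and -0.01 at 6 months, and none passed at either age. Of the catalytic core, which as a whole holds the flavin and the iron-sulfur centres, 5 subunits were measured. At 4 months their changes were between -0.05 and 0.10, and at 6 months between -0.05 and 0.08. Ndufv1, which binds NADH, had a change of 0.02 at 4 months and -0.04 at 6 months. Ndufs7, which holds the last iron-sulfur centre before ubiquinone, had -0.05 at each age, and Ndufs8, which lies near the ubiquinone site, had 0.10 and 0.08. The assembly factor Ndufaf1 had changes of 0.04 and -0.02.

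The widest changes of complex I were in accessory subunits of the membrane arm at 4 months. Ndufb2 had 7.06, 7.35 and 7.33 in smoke-exposed lungs, against 6.21, 6.95 and 6.98 in control lungs, a change of 0.53 ± 0.19 (SE, n = 3 arrays per group; limma adjusted p = 0.229). The groups did not overlap, and control replicate 1 lay well under the other control arrays: without it the change was 0.28 (limma adjusted p = 0.537). At 6 months Ndufb2 had 7.23, 7.51 and 7.23 in smoke-exposed lungs and 7.33, 7.62 and 7.37 in control lungs, which overlapped. Ndufb5 had 8.15, 8.12 and 8.48 at 4 months with smoke, against 7.72, 7.92 and 7.88 in controls (change 0.41, limma adjusted p = 0.264). It too was separate at 4 months and overlapped at 6 months, when its change was -0.04. Ndufb8, an accessory subunit often used as a protein marker of assembled complex I, had changes of -0.05 and 0.12.

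On the other side, Ndufs5-ps had the lowest change of complex I at 4 months, -0.28, with 9.74, 9.80 and 9.81 in smoke-exposed and 10.14, 10.15 and 9.91 in control lungs (limma adjusted p = 0.248). The groups were apart at 4 months, but at 6 months its change was 0.04. A probe annotated to a pseudogene may share sequence with Ndufs5, so which transcript it reads is uncertain. The accessory subunit Ndufa3 had a change of -0.21 at 4 months. At 6 months the highest changes were those of the accessory subunit Ndufa10 (0.24) and the assembly factor Ndufaf7 (0.15). The lowest were those of Ndufb11 (-0.20, with 0.13 by its other probe) and of Ndufab1 (-0.17), the mitochondrial acyl carrier protein, whose probe was detected on only 1 control array at 4 months.

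Complex II, succinate dehydrogenase, also belongs to the citric acid cycle. Its 7 genes had a median change of 0.06 at 4 months and 0.08 at 6 months. Sdhd, a membrane anchor, had 7.68, 7.63 and 7.88 in smoke-exposed lungs, against 7.13, 7.47 and 7.39 in control lungs at 4 months (change 0.41 ± 0.16 SE, n = 3, limma adjusted p = 0.282). All 3 smoke arrays lay above the control arrays. At 6 months Sdhd had 7.64, 7.74 and 7.63 with smoke and 7.89, 7.53 and 7.17 in controls, which overlapped. The iron-sulfur subunit Sdhb had changes of 0.23 and -0.03, and Sdhc, the other anchor, -0.00 and 0.02. Among the assembly factors, Sdhaf3 had the lowest change at 6 months (-0.23), Sdhaf1 had 0.12 then, and Sdhaf4 had 0.04 at 4 months.

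Complex III passes electrons from ubiquinol to cytochrome c. Its 7 genes had a median change of 0.03 at 4 months and -0.07 at 6 months, the largest change at 6 months being -0.12. Uqcrb, also known as the ubiquinone-binding protein, had 10.61, 10.38 and 10.54 in smoke-exposed lungs and 10.05, 9.74 and 10.49 in control lungs at 4 months. That change of 0.42 came with an overlap of the groups (limma adjusted p = 0.36), and at 6 months the change was -0.12. Cyc1, which hands electrons to cytochrome c, had changes of 0.11 and 0.06. The core proteins Uqcrc1 and Uqcrc2 had 0.00 and 0.03 at 4 months and -0.07 and 0.07 at 6 months. The hinge protein Uqcrh had -0.11 at 6 months, and the small subunits Uqcr10 and Uqcr11 had -0.06 and -0.15 at 4 months.

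Cycs, somatic cytochrome c, which also starts apoptosis when it leaves the mitochondrion, had changes of 0.18 at 4 months and -0.14 at 6 months. Its values were 5.39, 5.43 and 5.14 with smoke and 4.99, 5.13 and 5.30 in controls at 4 months. The groups overlapped, and another probe of the gene had a change of -0.22 at that age, so the direction of Cycs at 4 months depends on the probe.

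Complex IV, cytochrome c oxidase, held the only member that passed. Cox7b, a small nuclear-encoded subunit, had 5.89, 5.62 and 6.18 in smoke-exposed lungs, against 4.95, 5.02 and 5.23 in control lungs at 4 months. The smoke arrays all lay above the control arrays. At 6 months Cox7b had 5.70, 6.46 and 6.07 with smoke and 5.95, 5.60 and 5.95 in controls, and the groups overlapped. The change was 0.83 ± 0.19 (SE, n = 3 arrays per group) at 4 months, with a limma adjusted p of 0.0548, and 0.24 at 6 months. The change at 6 months was 0.05 without smoke replicate 2, 0.43 without smoke replicate 1 and 0.12 without control replicate 2. Averaged over both ages it was 0.54 (limma adjusted p = 0.0346).

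That call was close to the threshold. Over 22 alternatives the adjusted p ran between 0.0111 and 0.0929, with a change of 0.32 to 0.63. It was 0.0591 with no filter on dim probes. Of the 12 arrays left out in turn, 8 ended the call. The limma adjusted p was then 0.072 without smoke replicate 1 at 4 months, 0.0929 without smoke replicate 3, 0.0728 without control replicate 1 and the same without control replicate 2. Among the arrays at 6 months it was 0.0759 without smoke replicate 2, 0.0762 without smoke replicate 3, 0.0514 without control replicate 1 and 0.0727 without control replicate 2. With a mean log2 intensity of 5.72 the probe was dim, and the change at 4 months was 0.47 with an offset of 50 in place of 16.

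Promoters of chain genes often carry sites for NRF1 and for ETS factors such as GABP, which drive many nuclear genes of mitochondria. The 250 bases before the start were searched for the palindromic core of the NRF1 site, which is GCGC, any 2 bases and GCGC again, and for CCGGAAG on both strands, an ETS core. In the RefSeq table of mouse promoters, build GRCm38.p6, 75 of the 91 members were found, with 80 promoters. The NRF1 core was in 17.5% of them, against 4.98% of all 32851 promoters and 6.85% of those of protein-coding genes. The ETS core was in 18.8% of them, against 6.91% of all promoters and 8.98% of those of protein-coding genes. Among all 32851 promoters, matches of the 2 motifs overlapped in 4, and overlaps among the members were not counted. Below stand the promoter of Cox7b, the member that passed, and that of Ndufb4, a complex I subunit chosen after its values were seen, which had 3 matches of the NRF1 core. Capitals mark the NRF1 core. Cox7b lies at chrX:106015450-106015699 on the plus strand and Ndufb4 at chr16:37654369-37654618 on the minus strand.
Cox7b: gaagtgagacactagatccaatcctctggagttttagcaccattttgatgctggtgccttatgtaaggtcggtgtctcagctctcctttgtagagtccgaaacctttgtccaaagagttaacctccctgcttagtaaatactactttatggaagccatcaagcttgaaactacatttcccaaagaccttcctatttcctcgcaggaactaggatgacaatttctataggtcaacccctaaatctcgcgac
Ndufb4: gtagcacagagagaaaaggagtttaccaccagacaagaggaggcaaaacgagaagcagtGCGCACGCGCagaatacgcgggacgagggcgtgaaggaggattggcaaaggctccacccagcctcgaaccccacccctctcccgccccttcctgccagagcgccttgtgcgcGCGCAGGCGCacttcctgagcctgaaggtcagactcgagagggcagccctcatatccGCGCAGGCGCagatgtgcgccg
The Cox7b window had 43.6% G and C and held neither motif, which says only that these letters are not in it, while the Ndufb4 window had 63.2% G and C. The windows of Cox8a and Cox8b, taken out as well but not printed, also held neither motif.

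The other general subunits of complex IV gave smaller changes than Cox7b at 4 months. The 11 general subunits, Cox7b among them, had a median change of 0.10 at 4 months and 0.06 at 6 months. Cox5a, which helps regulate the enzyme, had 11.65, 11.64 and 11.72 with smoke, against 11.59, 11.49 and 11.55 in controls at 4 months. At 6 months it had 11.86, 11.84 and 11.88 with smoke and 11.56, 11.39 and 11.68 in controls. The smoke arrays lay above the control arrays at both ages, and the change was 0.13 at 4 months and 0.32 ± 0.10 (SE, n = 3) at 6 months, where the limma adjusted p was 0.0964. It was 0.0429 with an offset of 50 and 0.0379 with array weights.

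Cox4i1, the general isoform of subunit 4, had 12.60, 12.69 and 12.62 with smoke and 12.79, 12.76 and 12.38 in controls at 4 months (change -0.01, 95% interval -0.26 to 0.25). The arrays of the groups were interleaved, and at 6 months its change was 0.07. Cox5b had changes of 0.10 and 0.11, and its smoke arrays were separate from the control arrays at 6 months only. Cox6a1, Cox6b1, Cox6c, Cox7a2, Cox7c and Ndufa4, a subunit named for complex I but found in complex IV, had changes between 0.07 and 0.14 at 4 months and between -0.01 and 0.12 at 6 months. Cox8a, the general isoform of subunit 8, had 12.19, 12.19 and 12.40 with smoke and 12.05, 12.06 and 12.16 in controls at 4 months, a change of 0.17. At 6 months its change was 0.02. Cox7a2l, a relative of subunit 7a, had 0.14 and -0.17.

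**Figure D2:**
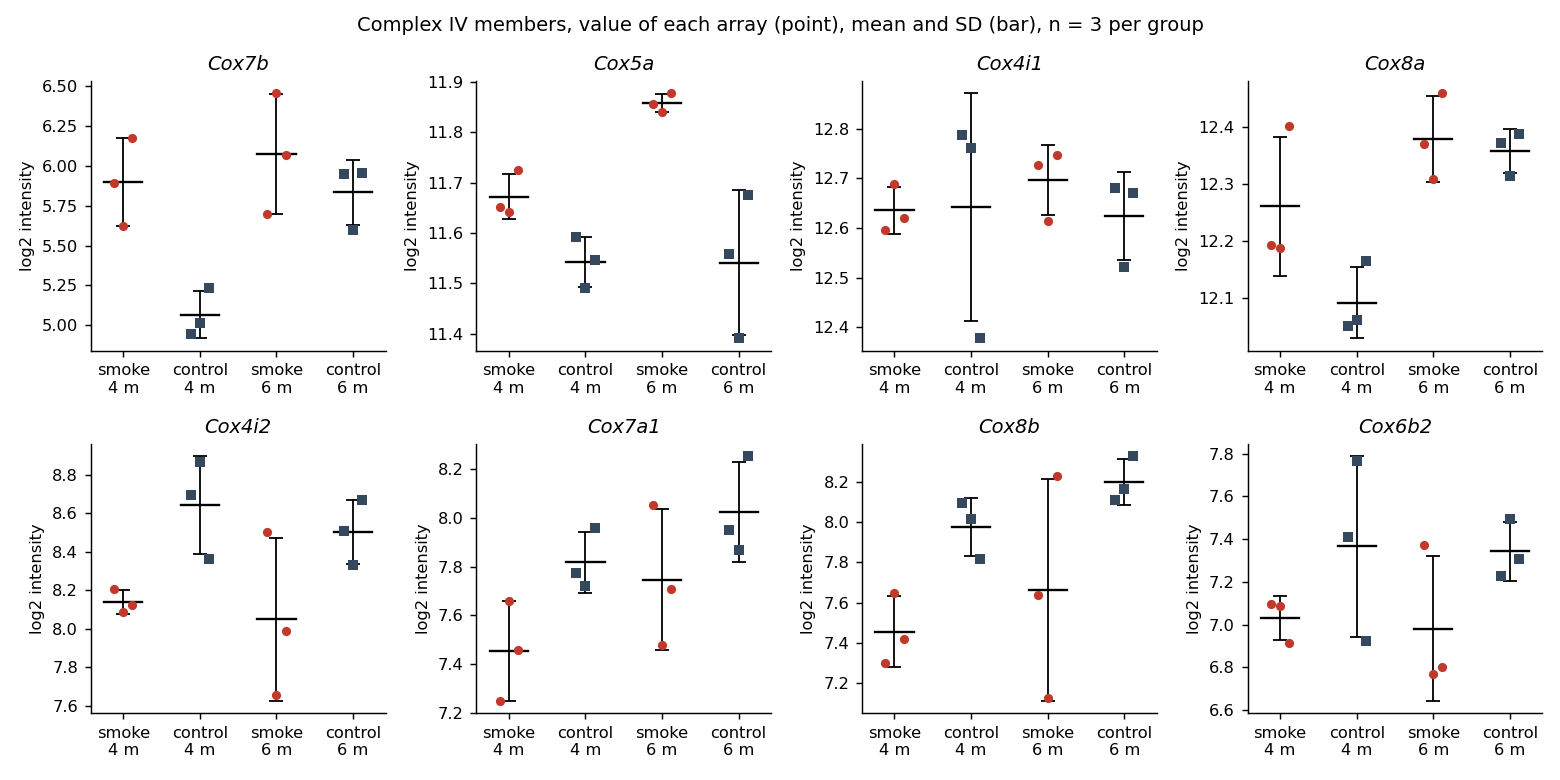
Normalized log2 intensity of 8 complex IV members in the 12 arrays, with the mean and SD of each group of 3. Red points are smoke-exposed and dark squares control lungs, and each panel has its own scale. The upper row holds general subunits, of which Cox7b shows all control arrays at 4 months below the rest, and the lower row tissue isoforms, where each smoke mean lies below the control mean of its age.

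The tissue isoforms of complex IV lay on the other side. All 5 that were detected had changes below 0 at both ages, with a median of -0.36 at each age, and 0 of 5 passed. Cox4i2, the isoform of subunit 4 that is prominent in lung, had 8.20, 8.09 and 8.13 in smoke-exposed lungs, against 8.70, 8.87 and 8.36 in control lungs at 4 months. The groups were apart. At 6 months it had 8.50, 7.66 and 7.99 with smoke and 8.51, 8.33 and 8.67 in controls, and smoke replicate 1 lay among the controls. Its change was -0.50 ± 0.19 at 4 months and -0.45 ± 0.19 at 6 months (SE, n = 3). Averaged over both ages it was -0.48, with a limma adjusted p of 0.0543. Over 22 alternatives that p ran between 0.00752 and 0.125, and it passed in 8 of them.

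Cox8b, the heart and muscle isoform of subunit 8, had 7.30, 7.65 and 7.42 with smoke, against 8.10, 8.02 and 7.82 in controls at 4 months. At 6 months it had 7.64, 7.12 and 8.23 with smoke and 8.11, 8.17 and 8.33 in controls. The groups were apart at 4 months and overlapped at 6 months. Averaged over both ages its change was -0.53 (limma adjusted p = 0.0587, between 0.00542 and 0.13 over 22 alternatives, of which it passed in 5). Cox7a1, the heart and muscle isoform of subunit 7a, had 7.25, 7.66 and 7.46 with smoke and 7.77, 7.72 and 7.96 in controls at 4 months. That was a change of -0.36, with the groups apart, and at 6 months the change was -0.28 with an overlap. Cox6b2, known as the testis isoform of subunit 6b, had changes of -0.33 and -0.36 with overlapping groups. The change of Cox6b2 at 4 months was -0.14 without control replicate 2 and -0.56 without control replicate 3, and at 6 months it was -0.56 without smoke replicate 1. Its average over both ages passed without control replicate 3 at 4 months (limma adjusted p = 0.0422). Cox6a2, the muscle isoform of subunit 6a, had -0.10 and -0.07.

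Smoke replicate 2 at 6 months was the lowest of the 3 smoke arrays for all 5 isoforms. Without it the changes at 6 months were -0.26 for Cox4i2, -0.27 for Cox8b, -0.14 for Cox7a1, -0.26 for Cox6b2 and 0.02 for Cox6a2, of which the last turned its direction. Without smoke replicate 1 at 6 months Cox4i2 had -0.68 (limma adjusted p = 0.0398), and without smoke replicate 3 Cox8b had -0.82 (limma adjusted p = 0.027).

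Cardiac muscle forms a sleeve around the pulmonary veins of the mouse, and its RNA is part of a lung sample. Of 14 cardiac markers 13 had a probe and 11 were detected. Their summed intensity was 4827 to 5817 in smoke-exposed and 5704 to 7461 in control lungs at 4 months, and 3842 to 8105 against 5989 to 8901 at 6 months. None of the 11 passed at either age, against 1.65% of all genes at 4 months and 5.08% at 6 months. The median change was -0.26 at 4 months and -0.37 at 6 months. Averaged over both ages 1 of the 11, Csrp3, was lower (limma adjusted p = 0.0401), where 6.96% of all genes passed. Ryr2 and Myh7 were not detected. The tissue isoforms and the cardiac markers put the smoke arrays at 6 months in the same order, but not the arrays of any other group. In the control arrays at 6 months the isoforms had mean deviations of 0.11, 0.17 and 0.32, and the markers 0.08, -0.06 and 0.61. Of the smoke arrays at 6 months, replicate 2 had the lowest mean deviation of both, -0.46 for the isoforms and -0.71 for the markers. Smoke replicate 1 had the highest, 0.14 and 0.40. At 4 months the isoforms had -0.27, -0.12 and -0.24 in smoke-exposed lungs, against 0.21, 0.23 and 0.02 in control lungs, which did not overlap. The cardiac markers had -0.36, -0.07 and -0.02, against 0.16, -0.08 and 0.20, which did. The part of cardiac muscle in the lower isoform values was not tested. Of 6 skeletal muscle markers detected, 0 were lower at either age and 1 was higher at 6 months (5.08% of all genes passed). The summed intensity of the 6 detected markers of fat was 412 to 446 in smoke-exposed and 645 to 1066 in control lungs at 4 months, and 390 to 1552 against 667 to 890 at 6 months. Their median change was -0.57 at 4 months, when 1 of 6 was lower (1.65% of all genes passed in either direction). It was -0.17 at 6 months, when 0 passed (5.08%). Cidec, a lipid droplet protein, was lower averaged over both ages (limma adjusted p = 0.00681). Adipoq, the fat hormone adiponectin, was highest in smoke replicate 3 at 6 months (9.70), the smoke array in which Cox8b was highest. The part of fat in the isoform values was not tested.

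**Figure D3:**
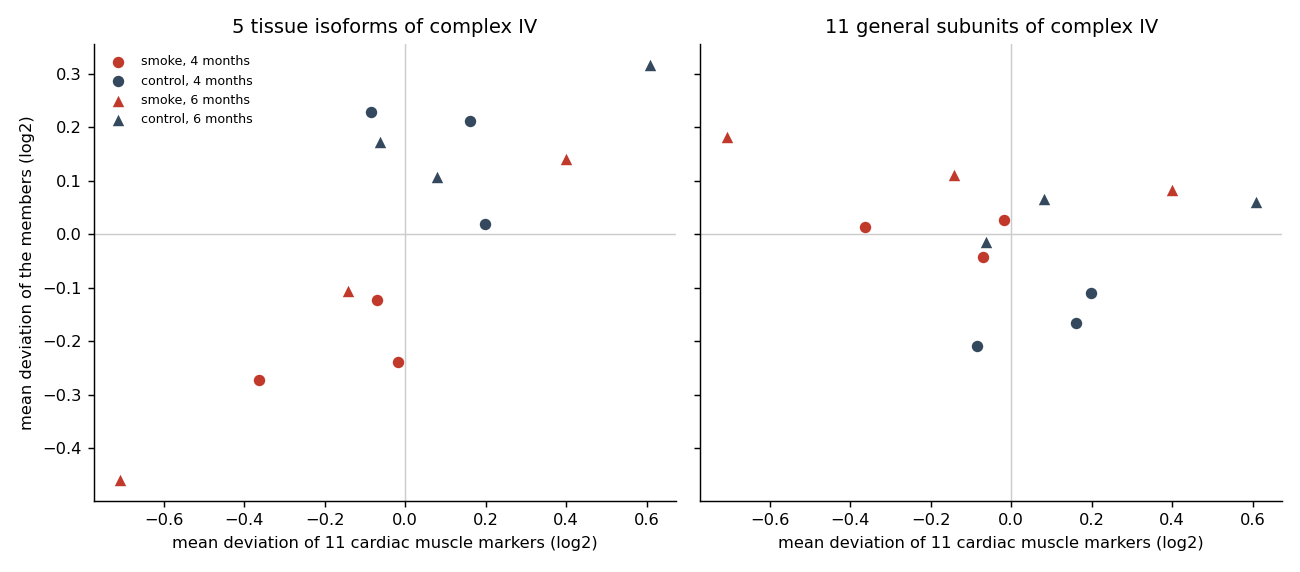
Mean deviation of the 5 tissue isoforms (left) and the 11 general subunits (right) of complex IV from their own 12-array means, against that of 11 cardiac muscle markers, in log2 units. Each point is an array, red for smoke and dark for control, circles at 4 and triangles at 6 months. On the left the smoke arrays lie below 0 except smoke replicate 1 at 6 months (0.14), and the array lowest on both axes is smoke replicate 2 at 6 months (-0.71, -0.46), which is the highest on the right (0.18).

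Complex V makes ATP. All 15 of its detected genes had changes above 0 at 4 months, between 0.02 and 0.37, with a median of 0.14, and 12 of 15 did at 6 months, with a median of 0.05. None passed at either age. The median at 4 months was 0.08 without control replicate 2. Genes within a sample are not independent, and the 15 share the same control arrays: the mean deviation of the complex V genes was -0.03, 0.03 and 0.02 in the smoke arrays at 4 months, against -0.19, -0.22 and -0.04 in the control arrays.

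In the F1 head, where ATP is formed, the catalytic beta subunit Atp5b had 13.56, 13.49 and 13.56 with smoke and 13.45, 13.31 and 13.66 in controls at 4 months. The arrays of the groups were interleaved (change 0.06, 95% interval -0.17 to 0.30), and the change at 6 months was 0.04. Atp5a1, the alpha subunit, had changes of 0.35 and 0.02. Atp5c1, the gamma subunit that turns within the head, had 0.14 at 4 months and 0.27 at 6 months (limma adjusted p = 0.255). Atp5d, the delta subunit, had 0.03 at 4 months. Among the genes of the membrane sector and the stalk, Atp5o, which links stalk and head, had 7.37, 7.38 and 7.20 with smoke and 6.84, 6.50 and 7.50 in controls at 4 months. Control replicate 3 lay above all smoke arrays, and the change was 0.37 ± 0.24 (SE, n = 3, limma adjusted p = 0.509).

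The c ring that carries the protons is encoded by 3 genes. Atp5g1 had 10.89, 10.90 and 10.93 with smoke, against 10.67, 10.68 and 10.66 in controls at 6 months. The groups were apart, with a change of 0.24 ± 0.10 (SE, n = 3, limma adjusted p = 0.257). Its change at 4 months was 0.15 and that of Atp5g2 0.02. At 6 months the lowest changes of complex V were those of Atp5j (-0.09) and Atp5l (-0.06), a stalk and a membrane subunit.

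Age was the other contrast of the design, with each age compared within its own treatment. The ages were measured in different mice. A batch that went with age could not be told apart from age, nor could a different length of exposure in the smoke groups. In control lungs the chain genes lay higher at 6 than at 4 months, but 0 of 85 passed, against 0.0569% of all genes (limma, lowest adjusted p of a member 0.0926). At an unadjusted p below 0.05, 21 members were higher at 6 months and 0 lower, where 8.17% of all genes were higher and 9.61% lower. The 6-month arrays lay wholly above the 4-month arrays for 24 members (8.06% of all genes) and wholly below them for 1, Sdhc (8.65%). Changes were above 0 for 67 of 85 members, against 48.3% of all genes, and the median was 0.15 against -0.01. The median was 0.11 without control replicate 2 at 4 months. In smoke-exposed lungs 0 of 85 passed as well, against 0.019% of all genes (limma, lowest adjusted p 0.326). There 5 members were higher and 0 lower at an unadjusted p below 0.05 (5.17 and 5.65% of all genes), 21 were wholly higher (11.5%) and 1, Ndufaf1, wholly lower (10.8%). Changes were above 0 for 67 of 85 members, against 51.8% of all genes, and the median was 0.08 against 0.01. Higher medians at 6 months in control lungs were not particular to the chain. They were 0.20 for fatty acid oxidation, 0.14 for carriers and antioxidant enzymes and 0.12 for the assembly list, all described below. The tricarboxylic acid cycle and the mitochondrial ribosome had 0.11 each, and mitochondrial biogenesis -0.06. In smoke-exposed lungs these medians were 0.15, 0.06, 0.10, -0.02, 0.11 and 0.06, in that order.

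The changes with age in control lungs were led by accessory subunits of complex I and by Cox7b. Ndufb4 had 6.50, 6.74 and 6.63 in control lungs at 6 months, against 5.94, 6.09 and 5.89 at 4 months (change 0.65 ± 0.14 SE, n = 3, limma adjusted p = 0.0926). The ages were apart. In smoke-exposed lungs Ndufb4 had 6.39, 6.46 and 6.62 at 6 months and 6.10, 6.10 and 6.61 at 4 months, a change of 0.21 with an overlap. Ndufb2 had a change with age of 0.73 in control lungs (limma adjusted p = 0.115) and 0.08 in smoke-exposed lungs, and Cox7b 0.77 (limma adjusted p = 0.105) and 0.18. Ndufb5 had 0.54, the membrane-arm subunit Ndufc2 0.49, Cycs 0.46 (0.13 by its other probe), the assembly factor Sdhaf3 0.43 and Atp5a1 0.42 in control lungs. These genes were singled out after their values were seen. In control lungs 0 members passed with all arrays, and 6 did without control replicate 3 at 4 months: Ndufb2, Ndufb4, Ndufb6, Ndufc1, Ndufc2 and Cox7b. Without that array 5.45% of all genes passed, 575 in place of 6, and the 6 members of 85 stood near that share.

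The control arrays at 4 months serve both as the baseline of age and as that of smoke at 4 months. The members' mean deviation from their own 12-array mean was -0.05, -0.01 and -0.00 in smoke-exposed and -0.11, -0.16 and -0.04 in control lungs at 4 months. At 6 months it was 0.01, 0.10 and 0.07 in smoke-exposed and 0.05, 0.08 and 0.06 in control lungs. The control arrays at 4 months had the lowest group mean, with control replicate 3 just above smoke replicate 1, and at 6 months the groups overlapped. The difference of the smoke effect between the ages, which passed for 0 members, had a median of -0.06.

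**Figure D4:**
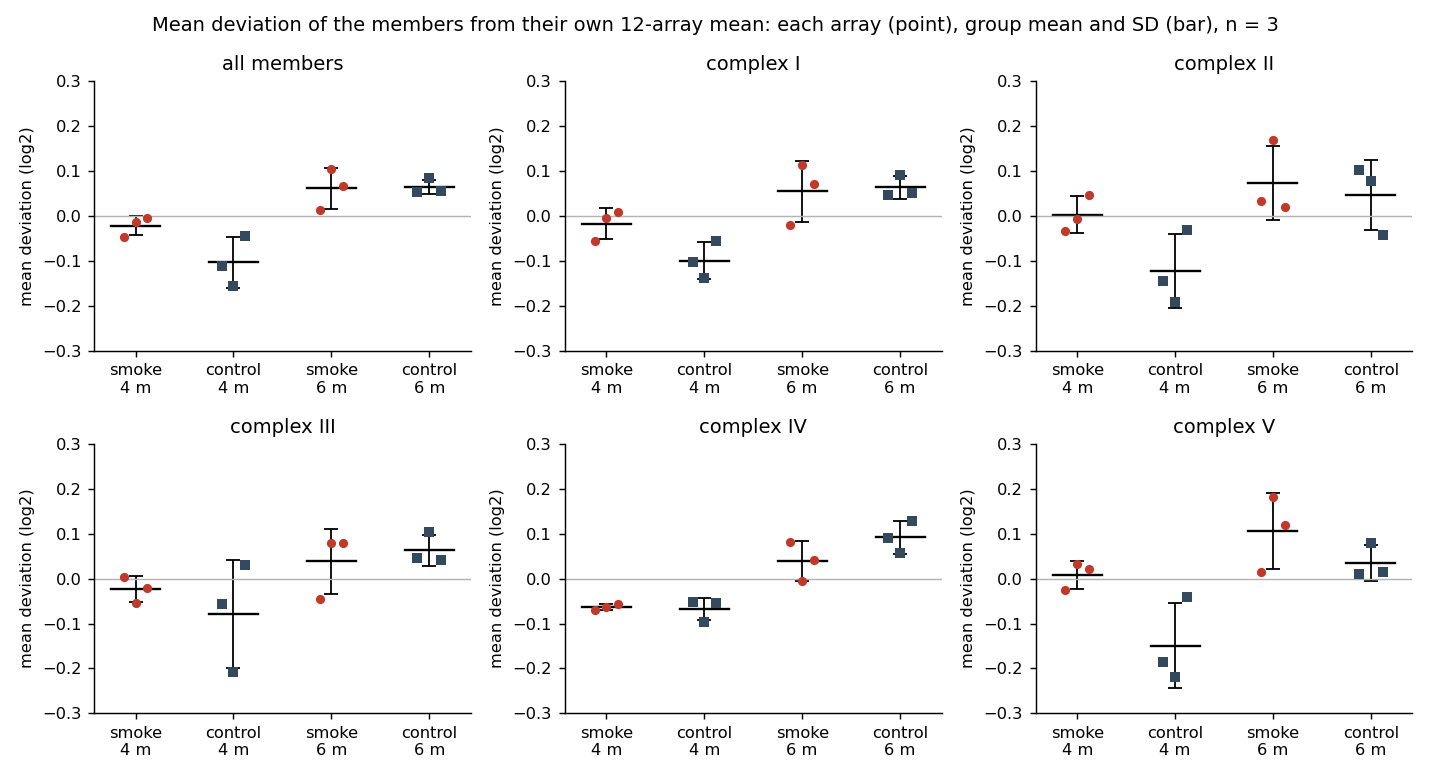
Mean deviation of the members from their own 12-array mean, in log2 units, for all members and for each complex. Points are arrays, red for smoke and dark for control, with the mean and SD of each group of 3. For all members the control arrays at 4 months have the lowest group mean (arrays at -0.16 to -0.04), and both groups at 6 months lie above 0.

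**Figure D5:**
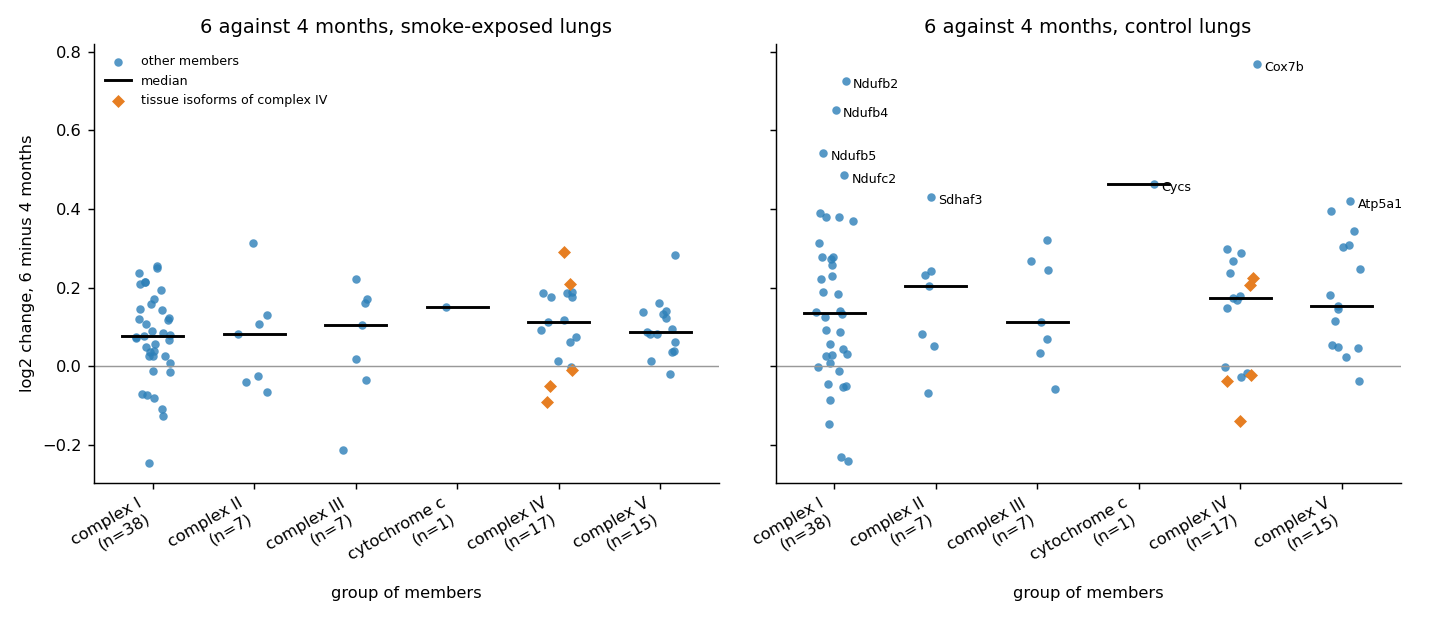
Log2 change of each of the 85 members, 6 minus 4 months, by complex in smoke-exposed lungs (left) and control lungs (right). Each point is a member, black lines are medians, and orange diamonds are the tissue isoforms of complex IV. Most points lie above 0 (67 of 85 on each side), and the control panel reaches 0.77 (Cox7b) where the smoke panel reaches 0.31 (Sdhaf1).

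In control lungs the median change with age was larger among the dim members, while in smoke-exposed lungs it was not. In control lungs the 29 dimmest members, with a mean under 9.61, had a median change with age of 0.23. Of these, 11 were higher at an unadjusted p below 0.05 (37.9%, against 7.95% of all genes under that cut). The 28 brightest, with a mean above 11.37, had a median of 0.09, with 2 of them higher (7.14%, against 6.93% of all genes above that cut). Neither set of all genes has an outer bound, so these shares also cover genes dimmer or brighter than any member. In smoke-exposed lungs the medians were 0.09 for the dimmest, with 1 higher (3.45%, against 5.39%), and 0.11 for the brightest, with 2 higher (7.14%, against 2.84%). The difference between dim and bright members was not tested. The members share the same arrays, and across the 85 members Spearman's rho of the change with the mean level was 0.07 in smoke-exposed and -0.34 in control lungs, while across all genes it was 0.01 and 0.04. For smoke it was -0.23 at 4 months and 0.34 at 6 months. The part of brightness in the changes with age was not tested.

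For 14 members the array carried several detected probes. The 4 probes of Ndufs4, an accessory subunit needed for a stable NADH arm, gave changes between 0.08 and 0.20 with smoke at 4 months and between -0.04 and 0.03 at 6 months. For Ndufb6 the brighter probe had a change of 0.34 and the other -0.05 at 4 months, and for Ndufb11 0.25 and -0.07. For Ndufa5 the brighter probe had 0.05 and the other 0.42. At 6 months the brighter probe of Ndufb6 had 0.05 and the other -0.17, that of Ndufb11 -0.20 and the other 0.13, and that of Ndufa5 -0.11 and the other 0.14. Of the 3 probes of Ndufv3 the brightest had 0.09 at 6 months and the dimmest -0.61. At 4 months the brightest probe of Ndufv3 had -0.00 and another 0.15. For Ndufaf5 the brighter probe had -0.05 and the other 0.12 at 4 months, and -0.03 and 0.05 at 6 months. For Ndufa8 these were 0.04 and -0.08 at 6 months. The directions of Ndufb6, Ndufb11, Ndufaf5 and Ndufv3 at both ages therefore depend on the probe chosen. So do those of Cycs at 4 months and of Ndufa5, Ndufa8 and Ndufs4 at 6 months.

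Among genes that work around the chain, glycolysis held most of the calls with smoke. Of its 16 detected genes, 1 was higher at 4 months (1.65% of all genes passed in either direction) and 2 were higher at 6 months (5.08%), and 0 were lower. On average over the ages 3 of 16 were higher, against 4.3% of all genes: Aldoc, Hk3 and Gapdh, the glyceraldehyde-3-phosphate dehydrogenase, which had 0.33 on average (limma adjusted p = 0.0275). Aldoc, a fructose-bisphosphate aldolase, rose by 0.60 at 4 months (limma adjusted p = 0.0131) and by 0.85 at 6 months (limma adjusted p = 0.000615). Hk3, a hexokinase of myeloid cells, rose by 1.42 at 6 months (limma adjusted p = 0.0185), and the phosphoglycerate mutase Pgam1 had 0.47 at 4 months (limma adjusted p = 0.258). Among 14 carriers, uncoupling proteins and mitochondrial antioxidant enzymes, 0 passed at 4 months (1.65% of all genes) and 1 was higher at 6 months (5.08%). That was Sod2, the superoxide dismutase of the mitochondrial matrix, with 0.40 at 4 months (limma adjusted p = 0.0673) and 0.49 at 6 months (limma adjusted p = 0.0117). The peroxiredoxin Prdx3 had 0.30 at 4 months and the channel protein Vdac2 0.17 at 6 months. Macrophage marker levels moved with smoke at both ages, as given above, and their part in these changes was not tested.

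In the other lists 0 genes passed with smoke at either age (limma), against 1.65% of all genes at 4 months and 5.08% at 6 months. These held 19 genes of mitochondrial biogenesis and DNA maintenance, 17 of the tricarboxylic acid cycle without complex II and 15 of fatty acid oxidation. They also held 70 mitochondrial ribosomal proteins and an assembly list of 29 genes. That list has assembly factors outside the name rule and also took in the peptidase Oma1. At an unadjusted p below 0.05 and 4 months, 7.03% of all genes were higher and 7.75% lower. In the lists 4 of 19 biogenesis genes and 1 of 70 ribosomal genes were lower then, and 1 of 17 cycle genes was higher. Of the 15 oxidation genes 1 was higher and 1 lower, and 0 of the 29 genes of the assembly list moved. At 6 months 9% of all genes were higher and 8.38% lower at that cut. In the lists 2 biogenesis genes, 1 cycle gene, 1 gene of the assembly list (Oma1) and 1 ribosomal gene were higher. Lower were 1 oxidation gene and 1 gene of the assembly list. Nrf1, a transcription factor of chain genes, had -0.30 at 4 months (limma adjusted p = 0.22), and Ppargc1b, a coactivator of such genes, had 0.56 at 6 months (limma adjusted p = 0.0541). Next to them stood the transcription termination factor Mterf1a, with -0.34 at 4 months, and Polg2, the accessory subunit of the mitochondrial DNA polymerase, with 0.40 at 6 months. Of the cycle genes, the dehydrogenase Idh2 had 0.27 at 4 months (limma adjusted p = 0.33) and Pcx, pyruvate carboxylase, 0.43 at 6 months (limma adjusted p = 0.265), followed by Mdh2 with 0.26 at 4 months and Sucla2 with -0.21 at 6 months. Of the oxidation genes, Hadh had 0.48 at 4 months (limma adjusted p = 0.116) and Acadm -0.28 at 6 months (limma adjusted p = 0.133), both dehydrogenases of the pathway. The carnitine palmitoyltransferases Cpt1b, the muscle isoform, and Cpt2 had -0.47 at 4 months and 0.22 at 6 months. The genes of the assembly list with the smallest p were Coa6 (0.21) and Cox20 (0.32) at 4 months, and Fmc1 (-0.28) and Oma1 (0.20) at 6 months. Of the ribosomal genes these were Mrps9 (-0.29) and Mrps34 (-0.25) at 4 months, and Mrpl17 (0.20) and Mrpl47 (-0.20) at 6 months. Among the mitochondrial ribosomal genes the median change with smoke was -0.01 at each age. Their median change with age was 0.11 in smoke-exposed and 0.11 in control lungs, and 0 of 70 passed (limma), with 7 of 70 higher at an unadjusted p below 0.05 in smoke-exposed lungs (5.17% of all genes) and 15 of 70 in control lungs (8.17%).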

How the data were processed

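Per the labels, total RNA of mouse lung was labelled with biotin and hybridised to Illumina arrays. Per the file headers, the authors deposited a raw probe intensity per array on a linear scale and a detection p-value for each probe. The values run below 0, so a background had been subtracted; the method is not given in the sources used here. The authors also deposited a normalized intensity table, used as an alternative. From the 25697 probes, limma 3.58.1 in R 4.3.3 (neqc, which estimates the negative controls through the detection p-values, with an offset of 16, quantile normalization, log2) gave the values used. The offset understates changes of dim probes. Probes with detection p below 0.05 on at least 3 of 12 arrays were kept (15490, of which 900 are unnamed here), and the brightest probe stood for a gene.

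A single fit covered the 12 arrays with a mean for each group (lmFit, eBayes, 8 residual and 4.54 prior degrees of freedom). Contrasts were two-sided with Benjamini-Hochberg adjustment over the 15490 probes. Standard errors and intervals come from this fit, and 3 arrays per group limit the precision. The code was tested on simulated data. The members, gene lists, tests and alternatives were chosen with earlier results of these data known. Genes named are the members that passed, the 2 highest and 2 lowest of each complex at each age, a fixed set of subunits and the 2 pathway genes with the smallest p. Other genes were named outside this rule with their values known, and only some are marked so. Among the unmarked are Ndufs7, Ndufs8, Ndufs4, Ndufb6, Ndufa5, Ndufv3, Gapdh, Csrp3, Cidec and Adipoq. Promoter sequences are from a RefSeq table (GRCm38.p6), which was used for names and sequences only. Alternatives were the authors' values, an offset of 50, no added background correction, equal medians or cyclic loess, no filter or detection on all 12 arrays, the mean over a gene's probes, only the arrays compared, array weights, a replicate block and each array left out.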

Additional observations from a re-analysis of the deposited data

How the results depend on the processing

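At 4 months 0 members passed. The count was 1 (Cox7b) with equal medians, with cyclic loess, with the mean over a gene's probes and with only the arrays compared, and 4 with array weights (Cox7b, Ndufb2, Ndufb6 and Ndufs5-ps), where 6.15% of all genes passed, against 1.36 to 1.99% in those that gave 1. At 6 months 0 passed, and 1 did (Cox5a) with an offset of 50 (5.64% of all genes) and with array weights (7.33%). Averaged over both ages 1 passed. The count was 3 with the authors' values, 4 without further background correction, 4 with an offset of 50, 2 with equal medians, 2 with detection on all 12 arrays, 2 with the mean over probes and 4 with array weights, and Cox4i2, Cox5a, Cox6b2 and Cox8b were the additions. Of all genes, 11.9% passed with array weights and 6.68 to 8.14% in the others. With no filter on dim probes it was 1, which was then Cox5a (4.06% of all genes). With age in control lungs 0 passed, and 1 did (Ndufb2) with array weights (1.66% of all genes). The median change of the members at 6 months was -0.042 with equal medians. Leaving out 1 array at a time gave 0 to 1 members at 4 months (0.825 to 3.51% of all genes) and 0 to 1 at 6 months (2.59 to 5.64%). It gave 0 to 3 on average (4.25 to 9.02%, with 3 where 7.85 and 9.02% passed). With age in control lungs it gave 0 to 6 (0 to 5.45%). The medians then ran between 0.026 and 0.119 at 4 months and between 0.0033 and 0.0384 at 6 months. The cause of these shifts was not tested.

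Replicate numbers are shared by the groups. Whole arrays correlated at 0.9621 to 0.9943 with each other. With each group's mean subtracted, the 6 pairs of the same number and age correlated between -0.13 and 0.25. Among the arrays of the other treatment at the same age, 5 of 12 arrays correlated best with their own number. The numbers were not taken as a pairing. With the replicate block 1 member passed on average (Cox7b, limma adjusted p = 0.0479) and 0 passed in every other contrast. The chip as a block was not run, since the headers name no chip, and the fit of only the arrays compared gives no average or difference of the ages. Signal over background limits the dim probes of Cox7b, Cycs, Ndufab1 and Ndufb11.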
